A study of Mus musculus with 13 samples.

Results

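Thbd and 8 further genes that control blood coagulation and its breakdown were followed in sorted cells of the neonatal mouse heart. The 9 genes, of 55487 in the deposited count table, were Thbd, Procr, F2r, F2rl1, F3, Tfpi, Tfpi2, Plat and Plau. They were selected on this comparison of cell types, with its values known, so their differences between cell types are given below as a description with no test. The question put to them was whether Thbd follows the genes of endothelial cells. RNA came from pacemaker cells (PC) of the sinoatrial node, which set the heartbeat, and from right atrial cardiomyocytes (RACM), the neighbouring working muscle. Both were sorted by flow cytometry from neonatal hearts of genotype Hcn4-GFP/Myh6-mCherry, in which 2 fluorescent reporters mark the pacemaker and the heart muscle lineage. Tissue from 8 to 10 hearts was pooled for each biological replicate, so no value belongs to 1 animal. There were 3 libraries of each cell type, numbered p0, p2 and p4 in their titles, and the labels of these libraries do not say what the number stands for.

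Thrombin, the last protease of the clotting cascade, is held in check on the vessel wall by thrombomodulin, the product of Thbd. Thrombin bound to thrombomodulin no longer clots fibrinogen and activates protein C instead, a step that the endothelial protein C receptor (Procr) speeds up. Free thrombin signals through protease-activated receptors (F2r, F2rl1), tissue factor (F3) starts the cascade, the tissue factor pathway inhibitors (Tfpi, Tfpi2) oppose it or related proteases, and the plasminogen activators (Plat, Plau) start the removal of the clot. Thrombomodulin is best known from endothelium and is also made by mesothelial and some other cells.

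Total counts lay between 14141151 and 22290996 per library, and values are CPM, counts relative to the scaled total of their library, unless said otherwise. Summed pacemaker markers (Hcn4, Isl1, Shox2 and Tbx3) lay between 3240 and 3310 CPM in PC and between 48.2 and 81.5 CPM in RACM, with Hcn4 carrying the reporter used in the sort. Summed cardiomyocyte markers, in order of p number, were at 89800, 103000 and 91400 CPM in PC. In RACM they were at 92400, 93600 and 63800 CPM, lowest in RACM p4. Both sorts also held RNA of marker genes of other cell types. For fibroblasts, summed markers in order of p number were at 949, 1070 and 2320 CPM in the PC libraries, and at 1870, 4090 and 11500 CPM in the RACM libraries. Macrophage markers were at 33.0, 13.3 and 58.0 CPM in PC, and at 212, 548 and 928 CPM in RACM. Smooth muscle and pericyte markers went the other way in sum, at 667, 429 and 705 CPM in PC, and at 210, 299 and 673 CPM in RACM. Acta2 alone gave 481, 301 and 533 CPM of these PC sums. In bulk libraries of this kind, fewer cells of a type and less RNA per cell cannot be told apart.

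Thbd was the member with higher levels in PC than in RACM. It is a gene without introns in the annotation used (ENSMUSG00000074743, mm10 chromosome 2 from 148404466 to 148408188, minus strand). In the PC libraries its level was 324 (p0), 288 (p2) and 265 CPM (p4), and in the RACM libraries it was 7.79 (p0), 8.47 (p2) and 10.8 CPM (p4). The same order is used below. All PC libraries lay far above all RACM libraries, and the cell types did not overlap. The means were 292 ± 29.6 CPM (SD, n = 3) in PC and 9.04 ± 1.61 CPM (SD, n = 3) in RACM, a 32.3-fold difference and a fitted log2 difference of 5.01. The counts behind these values were 5821, 5098 and 5622 in PC, and 113, 142 and 226 in RACM.

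Procr, which presents protein C to thrombomodulin (chromosome 2 from 155751117 to 155755471), stayed low in both cell types. It was at 0.612, 1.19 and 0.801 CPM in PC, and at 0.965, 1.07 and 1.82 CPM in RACM. These ranges overlapped, with from 11 to 38 counts per library. The fitted log2 difference was -0.57. The receptor thus did not share the high PC level of Thbd.

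F2r, which encodes protease-activated receptor 1, the main thrombin receptor of many mouse cells other than platelets (chromosome 13 from 95601803 to 95618487, minus strand), had its higher level in RACM. Its level was 37.0, 25.3 and 27.7 CPM in PC, and 86.4, 76.5 and 103 CPM in RACM. The cell types did not overlap, and the lowest RACM library was above the highest PC library. Means were 30.0 ± 6.16 and 88.5 ± 13.2 CPM (SD, n = 3 each), a 2.95-fold higher level in RACM and a log2 difference of -1.56. F2rl1, which encodes protease-activated receptor 2, a receptor for trypsin-like proteases (chromosome 13 from 95511732 to 95525227), had 0 counts among 60335733 in the PC libraries and 5 among 49063065 in the RACM libraries. It did not pass the filter on low counts. A count of 0 in a PC library allows a level of up to 0.141 to 0.169 CPM, taking 3 counts as the limit, so a lower level was not detectable at this depth.

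Tissue factor and its inhibitors did not share the direction of Thbd either. F3, the gene of tissue factor (chromosome 3 from 121723537 to 121735048), was at 2.95, 1.58 and 6.22 CPM in PC, and at 6.20, 5.25 and 6.82 CPM in RACM. PC p4 lay among the RACM libraries while PC p0 and PC p2 lay below them, and the log2 difference of -0.76 became -1.42 without PC p4. Tfpi, whose product blocks factor Xa and the complex of tissue factor with factor VIIa (chromosome 2 from 84432855 to 84476775, minus strand), was at 138, 112 and 106 CPM in PC. It was at 202, 182 and 155 CPM in RACM, above every PC library. Means were 119 ± 17.3 and 179 ± 23.3 CPM (SD, n = 3 each), a 1.51-fold higher level in RACM and a log2 difference of -0.60. Tfpi2, an inhibitor of plasmin, trypsin and related proteases (chromosome 6 from 3962595 to 3988919), was near the limit of detection. Its counts were 0, 13 and 0 in PC and 8, 18 and 42 in RACM. The cell types overlapped, and the log2 difference of -2.32 became -7.49 without PC p2, the PC library that held all 13 counts, and -3.43 with the p number as a replicate block. It was -1.16 without both p4 libraries and -1.20 as a ratio of mean CPM with a pseudocount of 0.5.

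Of the members with lower PC levels in all libraries, F2r and Tfpi had a promoter entry in the RefSeq table used (GRCm38.p6, the assembly also called mm10), and the bases upstream of their start sites are shown. Thbd, F2rl1, Plat and Plau were not matched to an entry. Each run ends just before the start in the deposited table, which lies upstream of the RefSeq start by 21 bases for F2r and 16 bases for Tfpi. Capitals mark matches on either strand to a GC box (GGGCGG), a KLF box (CCACCC), a T-box core (GGTGTG) or a TATA box (TATAAA).
F2r, chr13:95618488-95618716, minus strand: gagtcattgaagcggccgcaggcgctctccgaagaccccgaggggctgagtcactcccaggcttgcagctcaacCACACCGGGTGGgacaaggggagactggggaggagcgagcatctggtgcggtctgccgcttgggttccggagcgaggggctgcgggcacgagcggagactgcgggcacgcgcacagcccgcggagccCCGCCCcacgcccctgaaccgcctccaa
Tfpi, chr2:84476776-84477009, minus strand: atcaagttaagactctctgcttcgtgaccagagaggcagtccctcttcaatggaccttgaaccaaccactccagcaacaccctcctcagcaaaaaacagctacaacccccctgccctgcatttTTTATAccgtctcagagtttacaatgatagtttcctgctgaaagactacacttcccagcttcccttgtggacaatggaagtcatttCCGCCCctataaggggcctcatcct
The F2r run of 229 bases, 70.7% G or C, holds 1 match each to the GC box, the KLF box and the T-box core, the last 2 side by side. The Tfpi run of 234 bases, 48.7% G or C, holds 1 GC box and 1 TATA box. Among 32851 RefSeq promoters over 250 upstream bases, 32.7% hold a GC box, 28.1% a KLF box, 16.3% a T-box core and 12.4% a TATA box. A match is a run of letters and not a measured binding site.

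Both plasminogen activators had low levels, higher in RACM. Plat, the gene of tissue plasminogen activator (chromosome 8 from 22757727 to 22782844), was at 0.779, 3.61 and 5.14 CPM in PC, and at 6.89, 9.19 and 21.7 CPM in RACM. Plau, the gene of urokinase (chromosome 14 from 20836660 to 20843385), was at 0.278, 0 and 2.45 CPM in PC, and at 3.24, 9.31 and 15.8 CPM in RACM. For both genes the p4 library was the highest within each cell type, and no PC library reached the lowest RACM library. Plat had means of 3.18 ± 2.21 and 12.6 ± 7.97 CPM (SD, n = 3 each), 3.97-fold higher in RACM with a log2 difference of -1.98, which became -1.34 without RACM p4. Plau had means of 0.91 ± 1.34 and 9.45 ± 6.28 CPM, 10.4-fold higher in RACM. Its log2 difference of -3.34 became -6.01 without PC p4, whose 52 counts made up most of the PC counts, and -5.45 without both p4 libraries, a choice made after seeing the data. In the same order of libraries the fibroblast and macrophage sums given above were also highest in p4 within each cell type. Their part in the values of Plat and Plau was not tested.

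**Figure D1:**
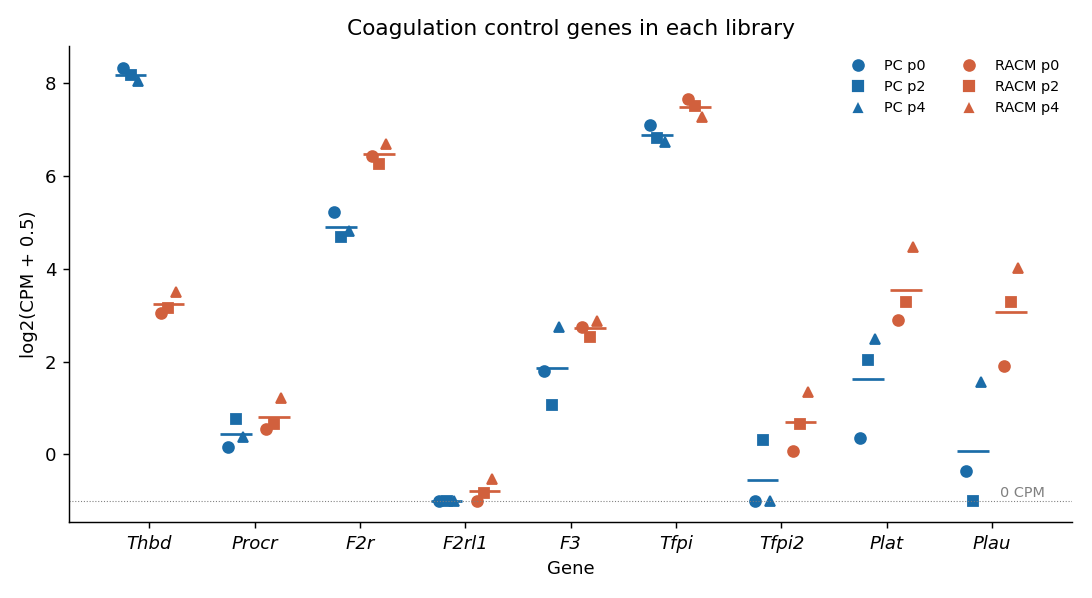
Level of each of the 9 genes on the log2(CPM + 0.5) axis, with 1 point per library (PC in blue, RACM in orange, symbols for p0, p2 and p4) and a bar at the mean of 3 libraries. Thbd is the gene whose PC points lie above its RACM points, F2r, Tfpi, Plat and Plau lie lower in PC, and Procr, F3 and Tfpi2 overlap. The dotted line marks 0 CPM.

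**Figure D2:**
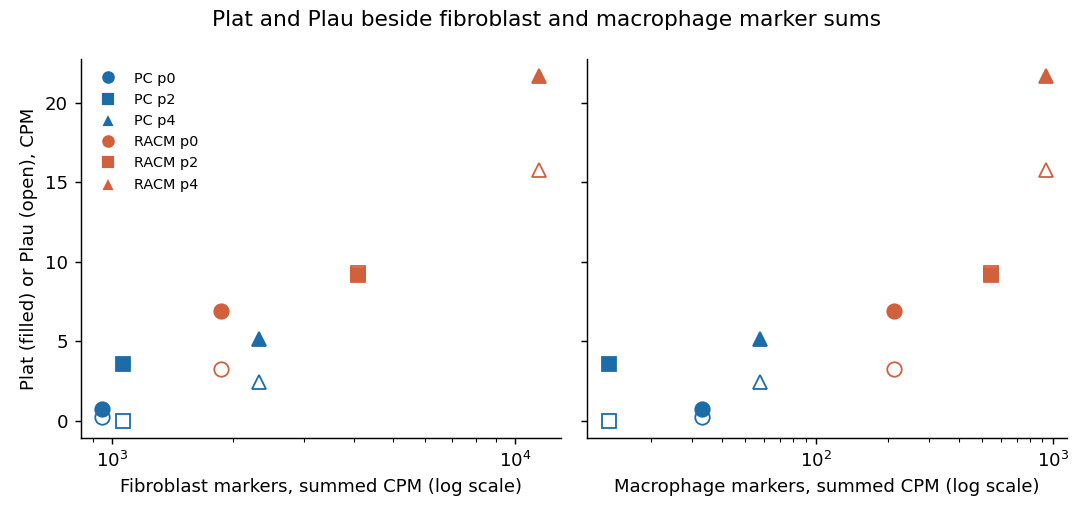
CPM of Plat (filled) and Plau (open) in each of the 6 libraries against the summed CPM of 10 fibroblast markers (left) and 12 macrophage markers (right), both on log axes. RACM p4, with Plat at 21.7 and Plau at 15.8 CPM, also has the highest marker sums, 11500 and 928 CPM.

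Of the 8 members that passed the filter on low counts, 1 had PC libraries all above RACM (13.5% of all 18015 genes tested) and 4 had them all below (13.4% of all genes tested), while 3 overlapped. Nothing is read from these counts, because the choice of the genes used the same values, and because Tfpi2 and Plau passed the filter through their RACM libraries alone.

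Levels of different genes were compared per exon length, as TPM, which also takes out gene length. In PC the order was Thbd at 139 ± 8.70, Tfpi at 38.3 ± 3.03 and F2r at 15.8 ± 1.95 TPM (SD, n = 3), each apart from the next by more than the spread. F3 followed at 2.51 ± 1.73 TPM, then Plat at 0.929 ± 0.66, Procr at 0.769 ± 0.309, Plau at 0.689 ± 1.03 and Tfpi2 at 0.264 ± 0.458 TPM. Among these lower genes no neighbours in the order differed beyond their spread. In RACM, Tfpi at 70.8 ± 14.7 and F2r at 56.3 ± 3.69 TPM came first and overlapped in spread. Plau at 8.25 ± 4.88, Thbd at 5.14 ± 0.446, F3 at 5.12 ± 0.388 and Plat at 4.16 ± 2.20 TPM formed a group within its own spread. Tfpi2 at 1.44 ± 0.751 and Procr at 1.33 ± 0.345 TPM came last among the genes tested, with the spread of Tfpi2 reaching that of Plat. Thbd thus led the order in PC, and no single gene led it in RACM.

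Thbd did not follow the general endothelial markers. The 29 endothelial markers listed summed to 153, 96.8 and 254 CPM in PC, and to 265, 250 and 374 CPM in RACM. The sum was thus lower in PC p0 and PC p2 than in any RACM library, where Thbd was high in all PC libraries. Thbd amounted to 212%, 297% and 104% of the summed endothelial CPM in PC, and to 2.93%, 3.39% and 2.90% in RACM, a ratio that is of use between libraries and not as a level, since CPM ignores gene length. Within PC, the library with the lowest endothelial sum, p2, had Thbd at 288 CPM, and the library with the highest, p4, had the lowest Thbd of the 3, 265 CPM.

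Per length, Thbd ranked 1 of 30 in PC when set among these markers. The next was Eng, a co-receptor of the TGF-beta family, at 5.80 TPM, and the median of the markers was 1.44 TPM. In RACM Thbd ranked 7 of 30, where Tek, the angiopoietin receptor, came first at 19.8 TPM and the median was 3.06 TPM. Its RACM level was therefore among those of the endothelial genes, and its PC level was not.

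Of the 27 endothelial markers tested, 0 were higher and 1 was lower in PC by edgeR's quasi-likelihood test with Benjamini-Hochberg adjustment, and 21 had a negative and 6 a positive log2 difference. Of all genes tested, 7.27% were called, 3.69% higher and 3.57% lower in PC. The median log2 difference of the markers was -0.74, with a range from -2.23 to 1.41, where that of all genes tested was 0.01. Pecam1 and Cdh5, adhesion molecules of endothelial junctions, had log2 differences of -0.54 and -0.63. Kdr, a VEGF receptor, had 0.55, Tie1 had -0.70 and the sialomucin gene Emcn had -1.21. None of these 5 passed the test (edgeR adjusted p from 0.223 to 0.605). Of 3 endocardial markers tested, 0 were higher and 1 was lower, Nfatc1 (log2 difference -1.69, edgeR adjusted p = 0.00691). Of 5 lymphatic endothelial markers tested, Pdpn was higher (1.58, edgeR adjusted p = 0.049) and Lyve1 lower (-3.68, edgeR adjusted p = 0.0223). Reln lay higher in every PC library but was not called (1.87). The endocardial median was -1.69 and the lymphatic median 0.18. The lymphatic sum was 234 to 278 CPM in PC and 250 to 268 CPM in RACM.

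Tek was the marker that fell among the 27, from 45.6 ± 33.8 to 10.3 ± 4.44 CPM (log2 difference -2.14 ± 0.53 SE, edgeR adjusted p = 0.0444). That call did not hold when any library other than RACM p0 was left out (PC p0, p2 or p4, RACM p4 or p2), at edgeR adjusted p from 0.0597 to 0.143. With the p number as a replicate block, 4 of the 27 markers were lower, Tek, Cd93, Eng and Ramp2. Ramp2 shares 33.4% of its exon bases with Vps25. With no filter 4 markers were lower, and by DESeq2 4 were lower and 1 was higher. The one higher by DESeq2 was Robo4, a receptor of vessel stability, whose PC libraries (4.73, 4.74 and 4.43 CPM) all lay above its RACM libraries (2.07, 1.49 and 1.68 CPM). Its log2 difference of 1.41 ± 0.44 (SE) did not pass by edgeR (adjusted p = 0.095) and passed by DESeq2 (adjusted p = 0.0267). The log2 difference of Thbd stood 5.75 above the median of the markers, and over all alternatives tried this gap lay between 5.62 and 6.57. Without PC p4, the PC library with the highest endothelial sum, it was 6.48.

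**Figure D3:**
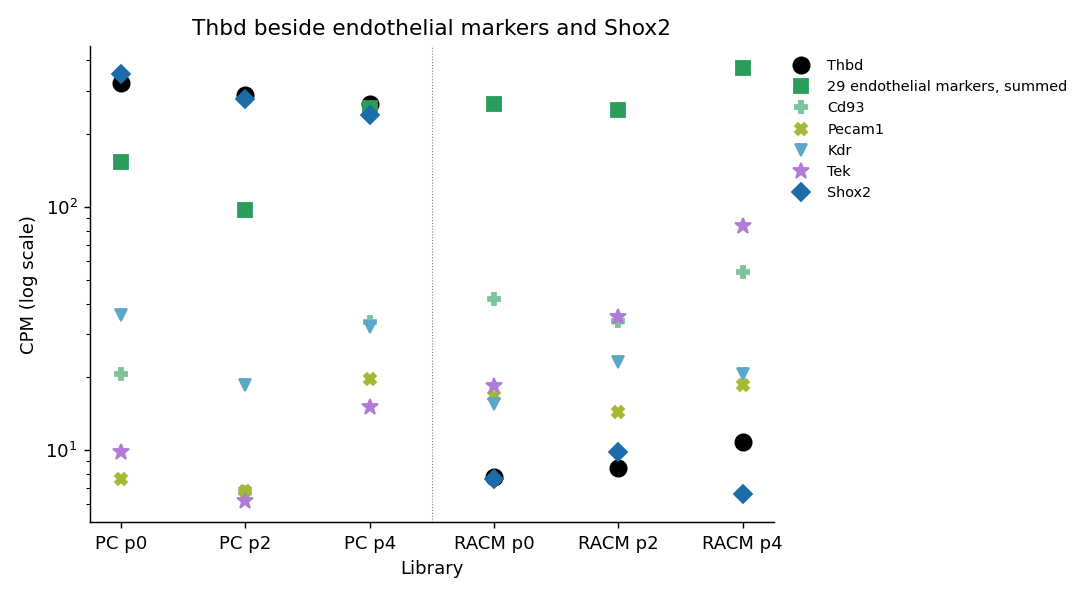
CPM on a log axis in each library for Thbd, the sum of 29 endothelial markers, 4 of these markers and the pacemaker gene Shox2. Thbd goes from 265 to 324 CPM in PC down to 7.79 to 10.8 CPM in RACM, as Shox2 does, while the endothelial sum is between 96.8 and 254 CPM in PC and between 250 and 374 CPM in RACM; each gene is to be followed across libraries, since CPM ignores gene length.

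Markers of mesothelium and of smooth muscle were looked at in the same way. Of the mesothelial markers, Wt1 was at 1.67, 0.621 and 0.754 CPM in PC and at 1.93, 2.81 and 1.87 CPM in RACM. Upk3b was at 0, 0.113 and 0.566 CPM in PC, and at 0.689, 2.03 and 0.576 CPM in RACM. Msln and Lrrn4 had at most 5 counts in any PC library. These 4 markers were thus at 1.67 CPM or below in the PC libraries, where Thbd was high. The whole mesothelial and epicardial list summed to between 95.7 and 121 CPM in PC and between 25.6 and 129 CPM in RACM, most of it in PC being Tbx18 (115, 109 and 76.6 CPM), a T-box gene that the sinus node also expresses. Of 6 genes of this list that were tested, Tbx18 was higher in PC (log2 difference 2.47 ± 0.45 SE, edgeR adjusted p = 0.0133, and 0.0596 without PC p0) and 0 were lower. Tbx18 shares 20.6% of its exon bases with an overlapping gene. Krt18, a keratin, was at 1.17, 2.26 and 5.66 CPM in PC and at 1.86, 0.955 and 3.60 CPM in RACM, and Aldh1a2 reached 10.3 CPM in PC p4 and 86.5 CPM in RACM p4.

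The summed smooth muscle and pericyte markers moved with Thbd in part. Acta2 made up most of this sum in PC, at 481, 301 and 533 CPM, and was at 82.1, 99.2 and 291 CPM in RACM. It was not called (log2 difference 1.48, edgeR adjusted p = 0.0909). Of 9 tested, 3 were higher and 2 lower in PC, where 3.69% and 3.57% of all genes tested were. Those lower were Pdgfrb (log2 difference -3.14, edgeR adjusted p = 0.0171) and Notch3 (-2.74, edgeR adjusted p = 0.0346). Rgs5 and Kcnj8 also lay lower in every PC library but were not called (log2 differences -1.98 and -3.6). Those higher were Myh11, the myosin heavy chain of smooth muscle (26.8 ± 5.70 against 4.17 ± 3.55 CPM, log2 difference 2.68, edgeR adjusted p = 0.0192), Cnn1, calponin (1.07, edgeR adjusted p = 0.00786), and Cspg4, a pericyte proteoglycan (1.27, edgeR adjusted p = 0.0171). The Myh11 call ended on leaving out PC p0 or PC p4 (adjusted p = 0.0648 and 0.0507), and that of Cspg4 on leaving out PC p0, RACM p2 or RACM p4 (0.0501 to 0.0786). Thbd was at 10.8 CPM in RACM p4, where the sum was 673 CPM, and at 288 CPM in PC p2, where it was 429 CPM. Their part in the level of Thbd was not tested.

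Genes whose pattern over the 6 libraries was most like that of Thbd were looked up among 9281 genes with a mean of at least 10 CPM. Likeness was the mean absolute difference of log2(CPM + 0.5) values, each gene being centred on its own mean. The nearest was Pcdh17, a protocadherin of cell adhesion, at a mean difference of 0.12. It was at 199, 245 and 209 CPM in PC and at 6.96, 6.68 and 8.74 CPM in RACM. Shox2, a transcription factor of the sinoatrial node, came next at 0.21, with 352, 279 and 239 CPM in PC and 7.65, 9.79 and 6.58 CPM in RACM. Calca, which encodes calcitonin and a related peptide, stood at 0.23. Others of the 8 nearest were 5330417C22Rik (0.24), AI847159 (0.28), the ubiquitin hydrolase gene Uchl1 (0.34) and the netrin receptor gene Unc5c (0.36), and 7 of the 8 were also nearest by Euclidean distance. AI847159 was at 0, 0.119 and 0.048 CPM in RACM, so its place depends on the added 0.5. Its fitted log2 difference was 8.62.

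The node genes Tbx3, Hcn4 and Isl1 ranked 15, 19 and 67 in this order. The 8 endothelial markers expressed enough to be ranked lay between 1368 (Kdr) and 9157 (Ramp2), with Cd93 at 8961 and Pecam1 at 8516. These ranks rest mainly on the difference between cell types, which was used to choose Thbd, and they describe 6 libraries. Counted from the highest in PC, the log2 difference of Thbd ranked 26 among the 9282 genes with a mean of at least 10 CPM, Thbd included.

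The p number was not used to choose the genes, so it could be tested in them, in a model with cell type. By edgeR's quasi-likelihood test 0 of the 8 members passed after Benjamini-Hochberg adjustment over all genes, where 0.00555% of all genes (1 gene) did. At an unadjusted p below 0.05, 2 of the 8 passed, where 11.9% of all genes did. These 2 were Plat (edgeR adjusted p = 0.28) and Plau (edgeR adjusted p = 0.412). Their p4 libraries were highest in both cell types, as were those of F3, which did not pass (edgeR unadjusted p = 0.164). By DESeq2, which gave an adjusted p to 6 members, Plat alone passed (DESeq2 adjusted p = 0.0256), where 4.96% of 13823 genes did.

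Plat also passed in edgeR with no filter on low counts (adjusted p = 0.0326) and without PC p2 (adjusted p = 0.026). Plau passed with no filter (edgeR adjusted p = 0.0397), without PC p2 (0.0314) and without RACM p2 (0.0103). The p number test of Thbd gave an edgeR adjusted p of 0.944, that of F2r 0.618 and that of Tfpi 0.478. These do not show that the levels were the same at each number.

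Other genes of coagulation and its control were taken from 7 lists by role. The lists were chosen with earlier results of these data known, so their counts and medians are a description. Of 62 listed genes 41 were tested, and 0 were higher and 9 lower in PC by edgeR's quasi-likelihood test, 22.0% of those tested where 7.27% of all genes were called. The median log2 difference was -0.85 (0.01 over all genes tested), and that of Thbd was 5.01. The number lower in PC became 0 when PC p0 was left out, 2 when it was PC p2, 3 when it was RACM p2 or RACM p4, and 5 when it was both p4 libraries. The sums of fibroblast and macrophage markers given above were lower in PC than in RACM at each p number, and their part in these falls was not tested.

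Clotting factors are made mainly by the liver, and 5 of 17 were tested, of which 1 fell. F13a1, the subunit of factor XIII that cross-links fibrin, averaged 20.4 ± 18.9 CPM in RACM and 0.735 ± 0.839 in PC (log2 difference -4.75 ± 1.11 SE, edgeR adjusted p = 0.0357). Leaving out RACM p2, RACM p4, PC p0 or PC p2 ended the call (adjusted p from 0.0608 to 0.13). Vwf, which tethers platelets and carries factor VIII, had a log2 difference of -0.46 (adjusted p = 0.755).

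Of 6 tested circulating and matrix anticoagulants, 2 fell. Pros1, the gene of protein S and so the cofactor of the protein C that Thbd helps to activate, averaged 14.2 ± 5.65 CPM in RACM and 4.39 ± 1.89 in PC (log2 difference -1.70 ± 0.42 SE, edgeR adjusted p = 0.0437). Its call ended when any one library was left out (adjusted p from 0.0522 to 0.173). Anxa5, annexin V, which covers exposed phosphatidylserine, had 49.6 against 108 CPM (log2 difference -1.13, edgeR adjusted p = 0.0184, not kept on leaving out RACM p4, PC p0 or PC p2, at 0.0508 to 0.0691). Proc itself, made by the liver, averaged 0.0157 CPM over PC and 0.0429 CPM over RACM libraries and was not tested.

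Among partners of fibrinolysis 1 of 7 tested genes fell, and 3 with the p number as a replicate block. Anxa2, a docking site for plasminogen and Plat, had 21.8 against 54.6 CPM (log2 difference -1.33, edgeR adjusted p = 0.049, not kept on leaving out RACM p2, RACM p4, PC p0 or PC p2, at 0.0854 to 0.16). Plaur, the urokinase receptor that binds the product of Plau, averaged 6.08 ± 2.86 CPM in RACM and 1.52 ± 1.99 in PC (log2 difference -1.99, edgeR adjusted p = 0.246). It passed with the replicate block (adjusted p = 0.0365), without PC p4 (0.0175) and without both p4 libraries (0.037). Serpine2, an inhibitor of both activators, had a log2 difference of -0.61 (edgeR adjusted p = 0.313).

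Around F2r, a list of other thrombin receptors with the G proteins and arrestins that act downstream of them gave 1 fall among 7 tested genes. Arrb2, a beta-arrestin, was at 4.11 against 13.5 CPM (log2 difference -1.72, edgeR adjusted p = 0.0426). The call ended when any library other than RACM p0 was left out (adjusted p from 0.101 to 0.182). F2rl2 and F2rl3, the other receptors of the family, had means of at most 0.731 CPM and were not tested.

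Of 6 genes whose products limit platelet activation or set vessel tone through nucleotides, prostanoids and nitric oxide, 2 fell. Entpd1, which breaks down ATP and ADP, averaged 16.0 ± 3.65 CPM in RACM and 2.28 ± 1.53 in PC (log2 difference -2.80 ± 0.48 SE, edgeR adjusted p = 0.0107). Ptgs1, cyclooxygenase 1, was at 2.83 ± 1.09 and 14.8 ± 5.53 CPM (log2 difference -2.38 ± 0.43 SE, edgeR adjusted p = 0.0126). Both calls were lost without PC p0 (adjusted p = 0.0522 and 0.0529) and under no other alternative tried. Nos3, endothelial nitric oxide synthase, which shares 32.3% of its exon sequence with overlapping genes, did not pass by edgeR (log2 difference -2.23, adjusted p = 0.0899) and passed by DESeq2 (adjusted p = 0.0258).

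Genes known as regulators of Thbd gave 1 fall among 7 tested and a median log2 difference of 0.13. Klf2, a shear-induced activator of Thbd in endothelium, averaged 56.2 ± 24.8 CPM over PC and 36.4 ± 2.54 CPM over RACM libraries, a log2 difference of 0.63 that did not pass (edgeR adjusted p = 0.246). Klf4 had a log2 difference of -0.53 (edgeR adjusted p = 0.232). Klf6 fell, from 281 ± 170 CPM in RACM to 79.4 ± 4.05 in PC (log2 difference -1.82, edgeR adjusted p = 0.0237, not kept on leaving out RACM p2 or any PC library, at 0.06 to 0.0927).

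The C-type lectin-like relatives of thrombomodulin did not share its direction. Cd93, of endothelial and myeloid cells and a neighbour of Thbd on chromosome 2, was at 20.6, 6.72 and 33.8 CPM in PC and at 42.0, 34.1 and 54.1 CPM in RACM (log2 difference -1.09, edgeR adjusted p = 0.228). It passed as lower in PC with the replicate block (adjusted p = 0.0336), under which 2 of the 3 relatives fell, and with no filter (adjusted p = 0.0208). Clec14a had a log2 difference of -1.04 (edgeR adjusted p = 0.415). Cd248, a gene of fibroblasts and pericytes, fell from 6.22 ± 3.92 to 1.23 ± 0.177 CPM (log2 difference -2.34, edgeR adjusted p = 0.0391), and the call ended when any library other than RACM p0 was left out (adjusted p from 0.0793 to 0.211).

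**Figure D4:**
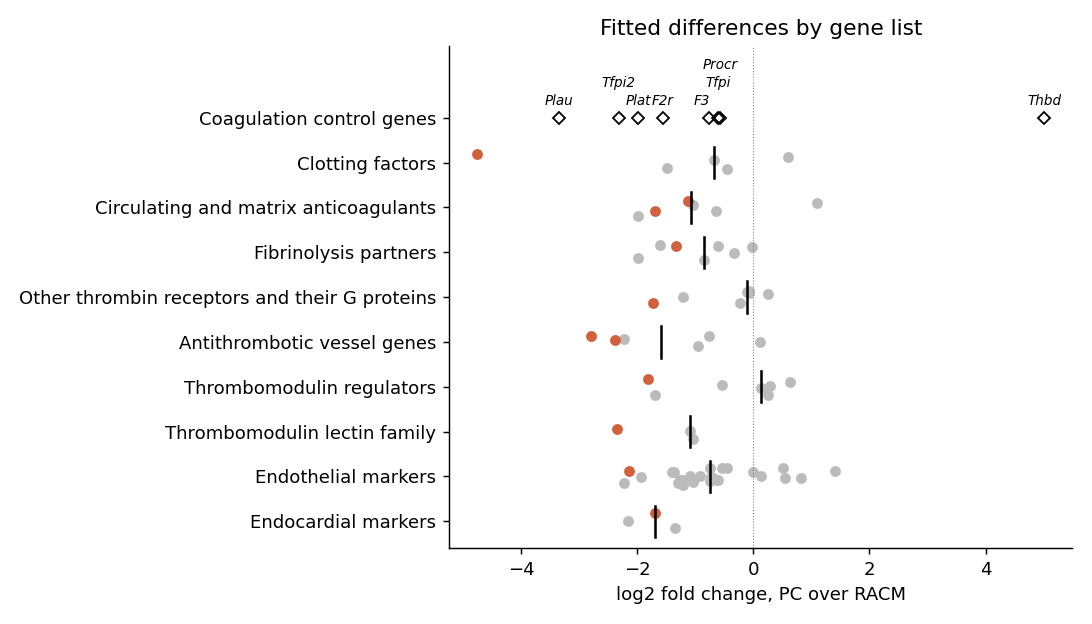
Fitted log2 differences, PC over RACM, of the 8 members that passed the filter (open diamonds, named, no test given) and of the genes tested in 7 lists of coagulation control and in the endothelial and endocardial marker lists (points, orange where lower in PC by edgeR at an adjusted p below 0.05, grey where not called). Vertical bars are list medians; Thbd at 5.01 lies to the right of every listed gene, and the list medians lie between -1.69 and 0.13.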

How the data were processed

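RNA-seq of 3 PC and 3 RACM libraries was used. The 7 ATAC-seq samples of the series were not analysed here. The kit named per the labels' protocols (Ovation, NuGEN) amplifies the small RNA amounts of sorted cells before paired-end sequencing. The deposited values are raw counts of read pairs per gene over exons, made by the authors with featureCounts 2.0.1 without regard to strand, per the file headers. Trimmomatic, HISAT2, edgeR and the build mm10 are named per the submitters' processing notes. No exon base of the 9 members is shared with another gene, and amplified reads are not independent molecules, so limits from counts cover counting error only.

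The 9 genes and all lists were chosen with earlier results of these data known. Genes were filtered with filterByExpr (minimum count 10, minimum total count 15), leaving 18015 of 33066 genes with a count. Of 55487 gene IDs 55141 matched a symbol. Counts were scaled by TMM and tested 2-sided with edgeR 4.0.16 in R 4.3.3, with Benjamini-Hochberg adjustment over all genes tested at a threshold of 0.05. The SE printed with an edgeR log2 difference was derived, as its absolute value over the square root of the quasi-likelihood F. CPM used TMM-scaled library sizes and TPM the exon length in the file. The p number was tested as a factor in a model with cell type. Per the labels each biological replicate is a pool of hearts, and whether PC and RACM of 1 number share a pool is not given. Libraries of the same number deviated together (correlations 0.156, 0.234 and 0.237 across genes, all above 0.1). An alternative fit therefore paired libraries by number, as a replicate block. The main fit of PC against RACM, and the calls from it, did not. No label states this pairing. No libraries were near-identical (chi-square per degree of freedom from 26.2 to 65.6 between replicates).

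Genes named were the 9 members, per list the 2 called genes of smallest p and the first of opposite sign, a fixed set of partners and markers, and the 8 genes most like Thbd. Some genes that this rule names are not reported here. Others (Eng, Ramp2, Robo4, Nfatc1, Pdpn, Lyve1, Reln, Krt18, Aldh1a2, Myh11, Cnn1, Cspg4, Acta2, Pdgfrb, Notch3, Rgs5, Kcnj8, Tbx18, Tbx3, Hcn4 and Isl1, and those in the closing section) were chosen after their values were seen. Alternatives were other scaling (RLE, upper quartile), no filter, DESeq2 1.42.0, a replicate block, each library left out, log2 ratios of mean CPM with a pseudocount of 0.5 and, added after seeing the data, both p4 libraries left out and the 10 highest endothelial markers. The steps were also run on simulated counts, drawn independently for each library, and nothing in the results is read from that run.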

Additional observations from a re-analysis of the deposited data

How the results depend on the processing

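Thbd kept its direction under every alternative, with log2 differences from 4.92 to 5.21, as did F2r (-1.74 to -1.41), Tfpi (-0.72 to -0.50), Plat (-2.52 to -1.34), Plau (-6.01 to -2.76), F3 (-1.42 to -0.40), Procr (-0.86 to -0.21) and Tfpi2 (-7.49 to -1.16). The gap between Thbd and the endothelial median was 5.75, ranged from 5.62 to 6.48 with 1 library left out, and was 6.57 without both p4 libraries. Calls of PC against RACM over all genes numbered 1309, and 2339 with no filter, 2304 by DESeq2, 511 to 1338 with 1 library left out, and 734 without both p4 libraries. With the p number as a replicate block, which rests on a pairing seen in the data, 2082 genes were called, 1267 of them among the 1309. The block gave 12 lower pathway genes against 9 and, among the named pathway and endothelial genes that were refitted, changed the calls of Plaur, Cd93, Eng and Ramp2. Genes called by p number were 1, and 720 with no filter, 686 by DESeq2, 77 to 458 with 1 library left out, and 188 without both p4 libraries, so counts for this factor depend strongly on the fit. Lower pathway genes numbered 9, from 0 to 8 with 1 library left out, 5 without both p4 libraries, and 11 with no filter or by DESeq2. Higher pathway genes numbered 0 under all 12 alternatives. The fit with no filter moved the median of all genes by -0.13 on the log2 scale. Procr, Tfpi2 and F2rl1 are limited by depth, with at most 42 counts in a library, and 3 libraries per cell type limit every test.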

Other observations

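The neighbours of the members by position, within 250 kb, were looked at after the members' values were seen. Thbd has 2 tested neighbours. Sstr4, a somatostatin receptor gene whose span (mm10 chromosome 2 from 148395344 to 148396767) ends 7699 bases from Thbd, had 275, 264 and 456 counts in PC and 1, 4 and 0 counts in RACM. Its log2 difference was 7.37 ± 0.70 (SE, edgeR adjusted p = 0.000551), and it was called under all 12 alternatives, with values from 6.48 to 8.92. Cd93, on the other side at 28452 bases, was not called and had a negative log2 difference of -1.09. The 2 tested neighbours of Thbd thus had log2 differences of opposite sign, of which only that of Sstr4 was called in the main fit. Genes that did not pass the filter were not looked at, and counts were made without regard to strand. Near the other members, Procr had 12 tested neighbours with 1 higher and 0 lower in PC, Tfpi 9 with 0 higher and 1 lower, F3 7 with 0 higher and 1 lower, Plat 8 with 1 of each, and Plau 15 with 1 higher. F2r and Tfpi2 had 2 tested neighbours each and F2rl1 3, and 0 of these were called. The 2 neighbours of F2r are also counted for F2rl1. Of all genes tested, 7.27% were called, 3.69% higher and 3.57% lower in PC, and nothing is read from the counts of neighbours.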
